A study of Mus musculus with 16 samples.

Results

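The collagens described here are the 38 mouse genes named Col, a number, a and a number that had an array probe set of their own, out of 18194 genes measured. The 4 cartilage genes Col2a1, Col9a1, Col9a2 and Col9a3 were left out, and each gene was read from its probe set with the highest mean. RNA of embryonic palate was hybridised to 16 one-colour Affymetrix arrays, all from C57BL/6J mice. Mutants were Erk2 fl/fl; Wnt1-Cre embryos (5 arrays at E14.5 and 3 at E13.5), in which Cre recombinase is driven by Wnt1 sequences active in the neural crest. Controls were Erk2 fl/fl embryos without Cre (5 arrays at E14.5 and 3 at E13.5), so both genotypes carried the floxed allele. Sample names call these controls wild-type. Replicates 1 and 2 of each E14.5 genotype belong to batch 1, and replicates 3, 4 and 5 to batch 2. The series design names primary mesenchymal cells while the extraction notes name tissue, so which of them was lysed is not settled. The number of embryos per array is not given, nor whether arrays came from separate litters, so a p-value reflects the spread among these arrays, which may be technical. The level of the targeted gene was not analysed here.

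Collagens are secreted or membrane proteins of 3 chains wound into a triple helix. Fibrillar collagens (types I, III, V and XI among them) pack into the fibrils that give connective tissue its tensile strength. FACIT collagens sit on the surface of those fibrils, network collagens form sheets such as the basement membrane under an epithelium, and transmembrane collagens link a cell to its matrix. In the palate most collagen is made by the mesenchyme, which descends largely from the neural crest and of which a part turns into bone, whereas the covering epithelium does not come from the crest.

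Arrays of one group correlated at 0.993 to 0.997, and no pair was identical. The median signal of an E14.5 array was 1.63 to 1.65 for mutants and 1.63 to 1.66 for controls, and that of an E13.5 array 3.42 to 3.44 for mutants and 3.39 to 3.4 for controls. Values of the 2 stages therefore stand on different scales. Markers of palatal mesenchyme (9 genes) averaged 7.98 to 8.13 on the mutant and 8.0 to 8.09 on the control arrays at E14.5, which overlapped, and 8.60 to 8.64 on the mutant and 8.71 to 8.81 on the control arrays at E13.5, which did not. Of the 9, 0 were called between genotypes at either stage (limma), and 2 had an unadjusted p under 0.05 at each stage. By their sex-linked transcripts, 3 of 5 mutants and 1 of 5 controls were female at E14.5, and all 3 mutants and 3 controls at E13.5.

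Of the 38 collagens, 28 reached a log2 value of 4 on at least 3 arrays and were tested. The remaining 10 were Col4a3, Col4a4, Col4a6, Col5a3, Col6a4, Col6a5, Col10a1, Col11a2, Col19a1 and Col20a1. Among the 28, 24 reached that value on all 16 arrays. Col22a1 reached it on no E13.5 array and Col15a1 on no E14.5 array, so they passed through one stage alone. A level here is a log2 signal of one probe set, which can be set against the same gene on another array but not against another gene.

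**Figure D1:**
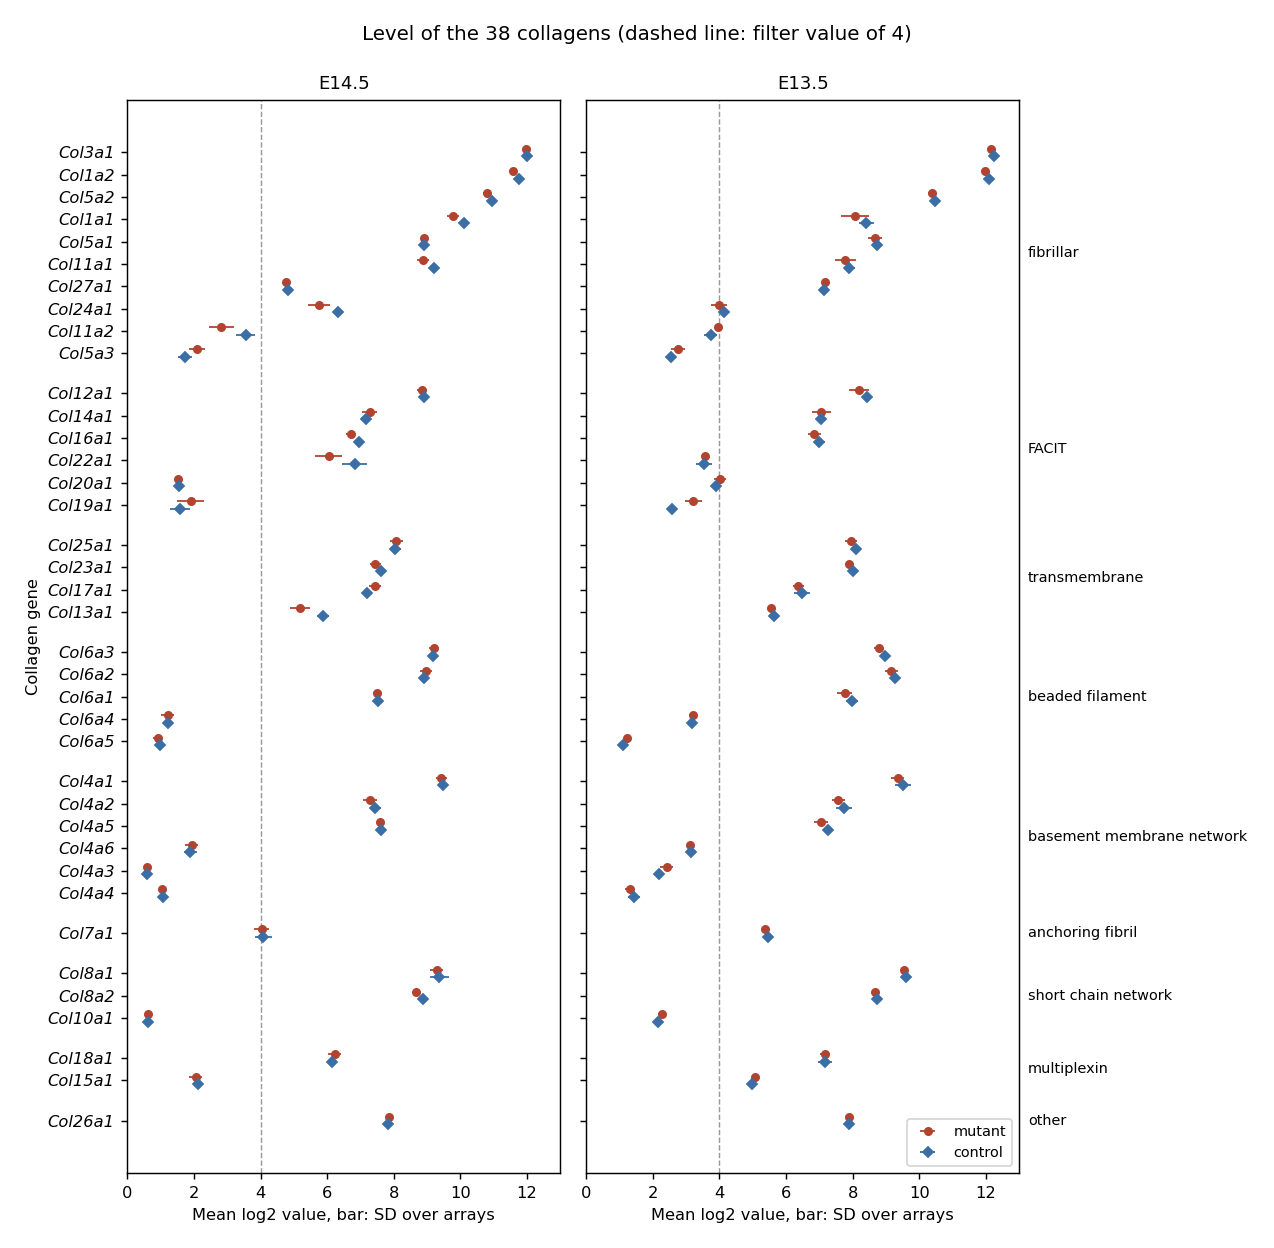
Mean log2 value (horizontal axis) of each of the 38 collagens in mutants (circles) and controls (diamonds) at E14.5 (left) and E13.5 (right), with bars for the SD over 3 or 5 arrays. The dashed line marks the filter value of 4. Col13a1, Col22a1 and Col24a1 lie further left in mutants than in controls at E14.5, as does the untested Col11a2 under the filter value (2.82 against 3.55). Most other pairs of points nearly coincide.

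At E14.5, 3 of the 28 collagens tested differed between mutants and controls, and all 3 were lower in mutants: the transmembrane collagen gene Col13a1, the FACIT gene Col22a1 and the fibrillar gene Col24a1. They make up 10.7% of the collagens tested, where 2.63% of the 11116 genes tested were called in either direction and 1.15% were called lower (limma, Benjamini-Hochberg adjusted p under 0.05). The main fibrillar genes had smaller differences that did not pass: Col1a1 was at −0.34 ± 0.13 (moderated SE, n = 5 and 5), Col11a1 at −0.32 ± 0.12, Col1a2 at −0.18 ± 0.06 and Col5a2 at −0.17 ± 0.05 on the log2 scale, with adjusted p-values from 0.11 to 0.20. Col3a1 and Col5a1 were near 0. In RNA from whole samples, fewer cells of a type and less RNA per cell cannot be told apart.

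Of the 38 collagens, 31 had a RefSeq promoter window (GRCm38.p6) of 250 bases before and 50 after a start site, 33 windows in all. Shown are the windows of the called genes Col13a1 and Col24a1 and, as fibrillar genes that were lower without a call, Col11a1 and Col1a2, so that genes that were low together can be read side by side, each from 250 bases before to 10 bases after the start, 5′ to 3′ on the gene's strand. Capitals mark matches, on either strand, to TATAAA (the TATA box), CCAAT (bound by NF-Y), GGGCGG (bound by Sp1), TGACGTCA (the cAMP response element), TGTGGT (a RUNX core) or TGANTCA (an AP-1 site).
Col13a1, chr10:61979099-61979358, minus strand: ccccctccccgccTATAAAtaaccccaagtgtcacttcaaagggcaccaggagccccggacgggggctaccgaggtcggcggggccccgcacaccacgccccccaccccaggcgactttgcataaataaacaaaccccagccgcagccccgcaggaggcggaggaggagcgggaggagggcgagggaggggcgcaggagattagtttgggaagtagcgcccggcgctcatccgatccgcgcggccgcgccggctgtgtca
Col24a1, chr3:145292222-145292481, plus strand: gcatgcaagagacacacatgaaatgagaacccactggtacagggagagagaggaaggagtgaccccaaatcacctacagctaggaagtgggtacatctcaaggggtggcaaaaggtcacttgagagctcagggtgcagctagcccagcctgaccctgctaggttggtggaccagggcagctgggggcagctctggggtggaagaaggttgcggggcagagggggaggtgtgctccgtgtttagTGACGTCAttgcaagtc
Col11a1, chr3:114030290-114030549, plus strand: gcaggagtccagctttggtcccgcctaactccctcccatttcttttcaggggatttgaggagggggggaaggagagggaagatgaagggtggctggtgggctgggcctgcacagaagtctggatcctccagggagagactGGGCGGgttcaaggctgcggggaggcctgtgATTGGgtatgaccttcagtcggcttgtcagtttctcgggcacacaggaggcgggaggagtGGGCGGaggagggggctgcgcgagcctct
Col1a2, chr6:4505368-4505627, plus strand: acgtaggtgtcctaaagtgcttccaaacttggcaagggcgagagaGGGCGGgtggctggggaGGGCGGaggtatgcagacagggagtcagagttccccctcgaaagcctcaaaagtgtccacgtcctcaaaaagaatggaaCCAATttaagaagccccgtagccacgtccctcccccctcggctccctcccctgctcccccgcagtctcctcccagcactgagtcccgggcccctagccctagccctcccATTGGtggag
The Col24a1 window held TGACGTCA across its start site, from −7 to 1 counted from the start, a motif found in 1 of the 33 collagen windows and in 1.79% of all 32851 windows. The Col13a1 window held TATAAA at −237 to −232; TATA boxes usually lie close to the start. That motif was in 5 of 33 collagen windows and 13.6% of all. Col11a1 and Col1a2 shared CCAAT (12 of 33 and 37.4%) and GGGCGG (21 of 33 and 35.7%). TGTGGT was in 3 of 33 (16.8% of all) and TGANTCA in 1 of 33, that of Col6a1 (7.81% of all). No motif was common to these 4 windows, and none of the searched motifs overlapped another in them. Such matches are letters in a window and describe no binding.

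**Figure D2:**
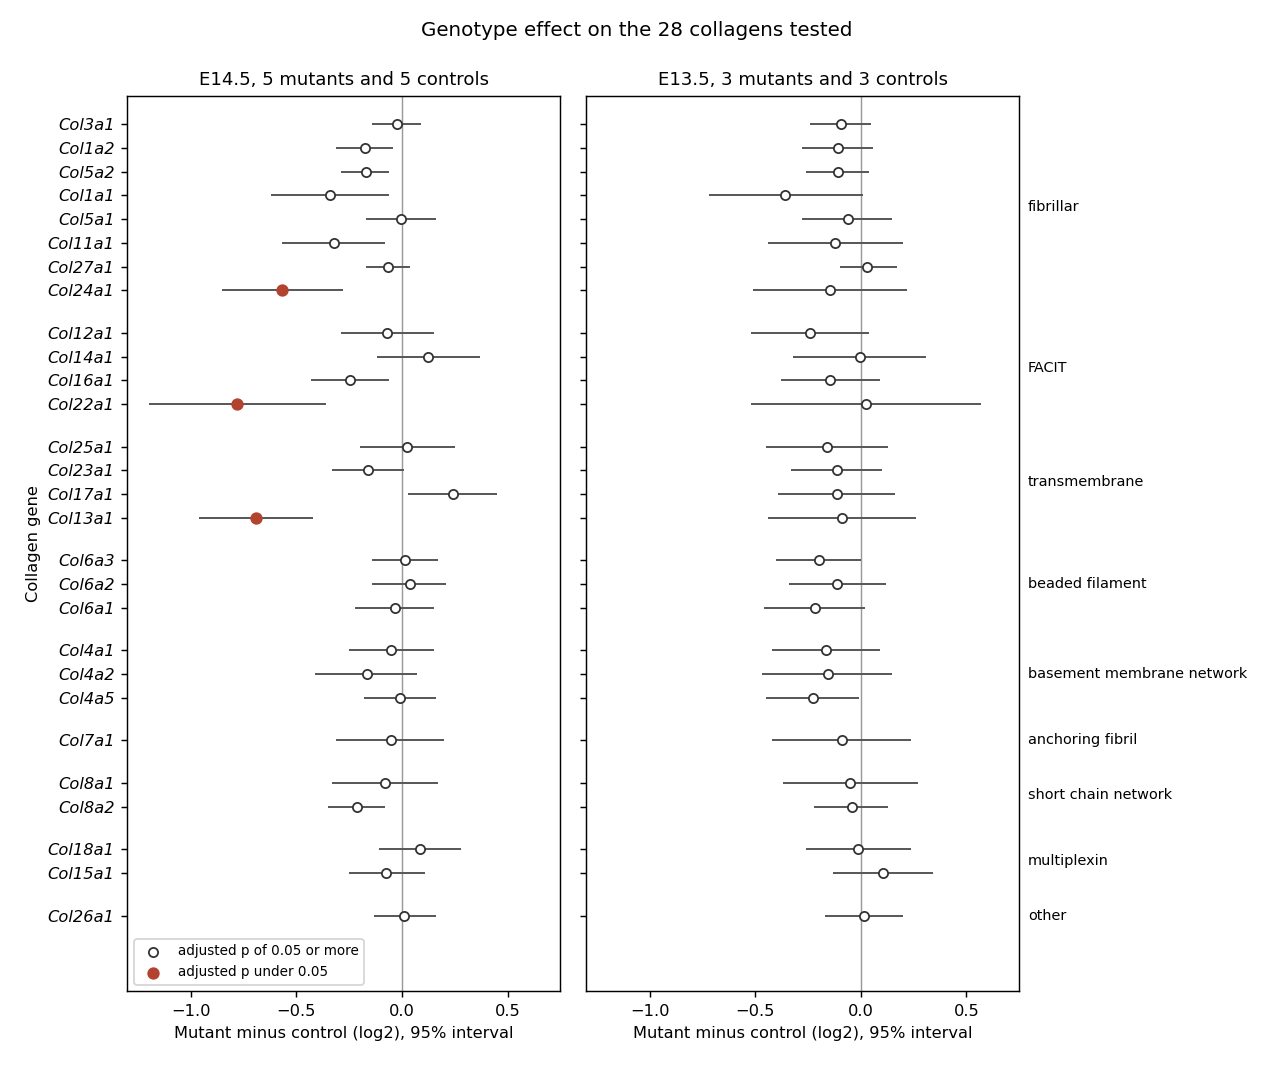
Mutant minus control difference on the log2 scale (horizontal axis, with its 95% interval) for the 28 collagens tested, by class, at E14.5 (left) and E13.5 (right). Filled points passed an adjusted p under 0.05: Col24a1, Col22a1 and Col13a1 at E14.5, all left of 0, and none at E13.5.

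Col13a1 encodes a short transmembrane collagen found at cell junctions with the matrix, known for its part at the neuromuscular junction and also active in bone. At E14.5 its log2 values were 4.87, 5.58, 4.93, 5.39 and 5.17 in mutants, against 5.69, 6.05, 5.69, 5.92 and 6.02 in controls. Every mutant array lay below every control array. The difference was −0.69 ± 0.13, or 0.62 times the control level (adjusted p = 0.01306, limma). It was −0.65 within batch 1 and −0.72 within batch 2. At E13.5 it had 5.57, 5.55 and 5.52 in mutants and 5.78, 5.66 and 5.47 in controls, which overlap, and the difference of −0.09 ± 0.16 did not pass. The change of the genotype effect between stages, −0.60 ± 0.21, did not pass either (adjusted p = 0.34, unadjusted 0.011). Col13a1 had only 1 probe set, so no other set could be compared.

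Col24a1 encodes type XXIV, a fibrillar collagen of developing bone. It had 5.43, 6.21, 5.76, 5.90 and 5.46 in E14.5 mutants, against 6.24, 6.30, 6.40, 6.20 and 6.45 in controls. Mutant replicate 2 just overlapped the lowest control, and with the batch effect removed the genotypes did not overlap. The difference was −0.57 ± 0.13, 0.675 times the control level (adjusted p = 0.03982), with −0.45 in batch 1 and −0.65 in batch 2. At E13.5 the values of 3.85, 4.25 and 3.85 in mutants and 4.26, 4.08 and 4.04 in controls lay at the filter value of 4 and overlapped. Col24a1, too, had only 1 probe set.

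Col22a1 encodes type XXII, a FACIT collagen of tissue junctions such as that of muscle and tendon. It had 6.01, 6.71, 5.78, 5.73 and 5.97 in E14.5 mutants and 6.23, 6.91, 7.01, 6.70 and 7.26 in E14.5 controls. Mutant replicate 2 lay above control replicates 1 and 4, so the genotypes overlapped. The difference was −0.78 ± 0.20, 0.582 times the control level, at the edge of the threshold (adjusted p = 0.04967). The 2 batches gave unlike sizes, −0.21 in batch 1 and −1.16 in batch 2. A term for that contrast was −0.95 ± 0.32, with an unadjusted p of 0.012 and an adjusted p of 0.37 (limma). The second probe set of Col22a1 was at −0.63, but its mutant mean of 3.78 lay under the filter value of 4 and its control mean was 4.41. The third, at −0.40, was under the filter value on all arrays. At E13.5 Col22a1 was under the filter value on all arrays, with 3.64, 3.47 and 3.54 in mutants, against 3.60, 3.26 and 3.72 in controls.

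The call of Col13a1 held in 28 of 30 alternative analyses (limma, adjusted p = 0.00258 to 0.151). That of Col24a1 held in 10 of 31 (0.00439 to 0.306) and that of Col22a1 in 8 of 31 (0.00568 to 0.70). Their direction held in all of these. Some of them, such as leaving out an E13.5 array or fitting E14.5 alone, change the error of an E14.5 difference and not its size. Those could not have changed the direction. Col13a1 stayed called without any 1 of the 16 arrays. Col24a1 then stayed called without mutant E14.5 replicate 2 or mutant E13.5 replicate 1 or 2 only (−0.70 to −0.47 over the 16), and Col22a1 without mutant E14.5 replicate 2 or control E14.5 replicate 1 only (−0.97 to −0.66). Fitting E14.5 alone left 0 of the 3 calls, and a term for sex left 1, that of Col13a1.

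**Figure D3:**
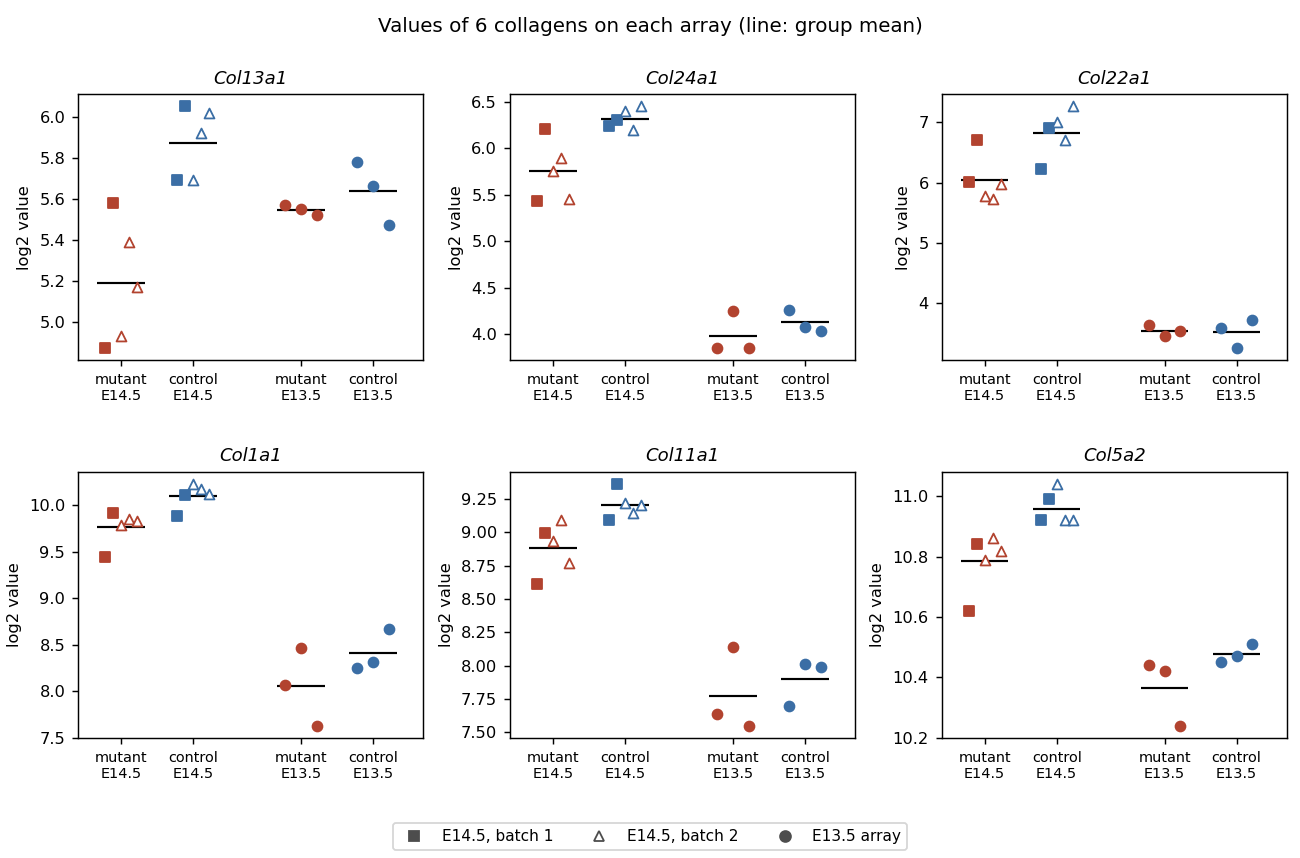
Log2 values (vertical axis) of 6 collagens on each array, with mutants in red to the left of controls in blue within each stage. Circles are E13.5 arrays, squares E14.5 batch 1, open triangles E14.5 batch 2, and lines group means; in Col13a1 and Col5a2 no E14.5 mutant reaches the lowest control.

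The fibrillar class had 10 members, of which 8 were tested. All 8 were below 0 at E14.5, with a median of −0.17 against 0.01 over all genes, and 1 was called. That held within batch 1, where sex and genotype cannot be told apart. Within batch 2, Col3a1 (0.05), Col5a1 (0.04) and Col27a1 (0.02) were above 0, and the rest of the 8 were below. Col1a1 and Col1a2 encode the chains of type I collagen, the main protein of bone and dermis. Col1a1 had 9.45, 9.92, 9.79, 9.85 and 9.83 in E14.5 mutants, against 9.89, 10.11, 10.23, 10.18 and 10.12 in controls. Mutant replicate 2 was just above control replicate 1, and mutant replicate 1 was the lowest of all. The difference was −0.32 in batch 1 and −0.36 in batch 2, and both probe sets in use pointed the same way (−0.34 and −0.21). Col1a2 had 11.38, 11.66, 11.56, 11.62 and 11.63 in mutants and 11.70, 11.79, 11.81, 11.70 and 11.73 in controls. As deposited these did not overlap, but with the batch effect removed they did. Its difference of −0.18 had a 95% interval from −0.31 to −0.04, and an adjusted p of 0.15.

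Type V and type XI chains enter the core of fibrils and control their width. Col5a2 had 10.62, 10.84, 10.79, 10.86 and 10.82 in E14.5 mutants and 10.92, 10.99, 11.04, 10.92 and 10.92 in controls, without overlap (−0.17 ± 0.05, adjusted p = 0.11). Col11a1 had 8.61, 8.99, 8.93, 9.09 and 8.77 in mutants and 9.09, 9.36, 9.22, 9.14 and 9.20 in controls. These groups met at 9.09 and separated once the batch effect was removed (−0.32 ± 0.12, adjusted p = 0.16). Second probe sets gave −0.18 for Col5a2 and −0.44 for Col11a1. Col5a1, the partner chain of Col5a2 in type V, was at −0.003 with an interval from −0.17 to 0.16.

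Col3a1 encodes type III, which mixes with type I in soft tissue. It had 11.81, 11.92, 12.03, 12.08 and 11.99 in E14.5 mutants, against 12.02, 11.99, 12.01, 12.0 and 11.94 in controls. As deposited, the mutant values spread to both sides of the controls. With the batch effect removed, they ran from 11.86 to 12.05, against 11.91 to 12.07 in controls. The difference of −0.03 had an interval from −0.14 to 0.09. Col27a1, a fibrillar collagen of cartilage, was at −0.07 (interval −0.17 to 0.04). Of the untested fibrillar genes, Col11a2, the other type XI chain, had 2.60, 3.46, 2.57, 2.66 and 2.80 in mutants and 3.07, 3.59, 3.58, 3.64 and 3.85 in controls at E14.5. It stayed under the filter value in both genotypes there; with no filter, or after further quantile normalization, it was among the called genes.

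Counted without the batch effect, 4 of the 28 collagens had E14.5 mutants entirely below controls (Col13a1, Col24a1, Col11a1 and Col5a2), and 0 lay entirely above. Over all genes tested 2.15% were entirely below, 2.75% entirely above and 4.9% either. At an unadjusted p under 0.05, 9 collagens were lower (32.1%, against 7.02% of all genes) and 1 was higher (3.57%, against 10.3%), 10 in all (35.7%, against 17.3%). In all, 21 of 28 collagens were below 0 with a median of −0.07, where 44% of all genes were below 0. With a term for sex in the fit, 16 of 28 were below 0 with a median of −0.03. Leaving out 1 array gave medians from −0.10 to −0.03.

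The FACIT class had 4 tested genes of 6, 3 of them below 0 at E14.5. Col12a1 and Col14a1 encode types XII and XIV, which coat type I fibrils. Col12a1 had 8.62, 8.98, 8.90, 8.95 and 8.81 in E14.5 mutants and 8.96, 9.03, 8.97, 8.72 and 8.94 in controls, which overlapped (−0.07 ± 0.10). Col14a1 had 7.14, 6.98, 7.31, 7.37 and 7.57 in mutants and 7.22, 7.33, 7.16, 7.04 and 7.01 in controls. Its difference was −0.21 in batch 1 and 0.35 in batch 2, the smallest p of any collagen for a contrast between batches (unadjusted 0.0092, adjusted 0.36). Col16a1, named after its values were seen, was at −0.24 ± 0.09 (adjusted p = 0.15), with −0.34 in batch 1 and −0.18 in batch 2.

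Among transmembrane collagens, Col17a1, a hemidesmosome protein that anchors basal epithelial cells, was the one member whose unadjusted p under 0.05 came with a higher level in E14.5 mutants. Named after its values were seen, it had 7.35, 7.17, 7.52, 7.43 and 7.66 in mutants and 7.21, 7.15, 7.21, 7.03 and 7.33 in controls. Genotypes overlapped, and the difference of 0.24 ± 0.10 did not pass (adjusted p = 0.23). Epithelial markers ran the same way: 5 of 10 rose, among them Krt14 by 0.62 ± 0.09 and Sfn by 0.64 ± 0.07, 10 of 10 were above 0, and the list averaged 7.75 to 8.06 on mutant against 7.30 to 7.54 on control arrays at E14.5. Col7a1, which encodes the anchoring fibrils below that epithelium, had 3.96, 3.76, 3.92, 4.30 and 4.21 in mutants and 4.41, 3.79, 4.16, 3.89 and 4.16 in controls, near the filter value (−0.05 ± 0.12). The part of epithelial content in these values was not tested.

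Col25a1 and Col23a1 are membrane collagens, the first known for its part in the innervation of muscle. Col25a1 had 7.80, 7.93, 8.22, 8.27 and 8.12 in E14.5 mutants, against 8.33, 7.92, 8.07, 7.95 and 7.97 in controls, a difference of 0.02 ± 0.10. Col23a1 had 7.23, 7.37, 7.72, 7.47 and 7.48 in mutants and 7.80, 7.42, 7.70, 7.58 and 7.57 in controls (−0.16 ± 0.08). Both overlapped between genotypes. Skeletal muscle markers (8 genes) were above 0 in mutants at both stages with 0 called, and ran from 6.49 to 7.68 on mutant against 5.78 to 6.98 on control arrays at E14.5. In Col13a1 and Col22a1, which muscle and its junctions also express, the E14.5 difference had the opposite sign to these markers. The part of muscle content in these values was not tested.

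Collagens of filaments and sheets showed no call at E14.5. Type VI collagen forms beaded filaments around cells. Its genes Col6a1, Col6a2 and Col6a3 were at −0.03, 0.04 and 0.01, with intervals inside −0.22 to 0.21. Col6a3 had 9.04, 9.19, 9.10, 9.44 and 9.21 in mutants and 9.18, 9.16, 9.20, 9.16 and 9.21 in controls, and Col6a2 had 8.86, 8.71, 9.0, 9.17 and 9.04 in mutants and 8.98, 8.85, 9.04, 8.91 and 8.82 in controls. For both, mutants as deposited spread more widely than controls around about the same mean. With the batch effect removed, that still held for Col6a3. Col6a2 then ran from 8.80 to 9.11 in mutants and from 8.76 to 9.06 in controls, about the same spread.

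Type IV collagen is the network of basement membranes. Col4a1 had 9.29, 9.25, 9.48, 9.62 and 9.51 in E14.5 mutants and 9.51, 9.35, 9.57, 9.38 and 9.59 in controls (−0.05 ± 0.09). Col4a2, its partner chain, had 7.05, 7.08, 7.39, 7.54 and 7.37 in mutants and 7.51, 7.44, 7.49, 7.19 and 7.63 in controls (−0.17 ± 0.11, −0.41 in batch 1 and 0.00 in batch 2). Col4a5 was at −0.01 ± 0.08. In each of the 3, the genotypes overlapped.

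Type VIII chains form the short-chain network of vessel walls and of the cornea. Col8a2 had 8.64, 8.79, 8.60, 8.67 and 8.63 in E14.5 mutants and 8.80, 8.94, 8.72, 8.83 and 9.10 in controls. It overlapped in part and came next after the called genes (−0.21 ± 0.06, adjusted p = 0.091). Without E14.5 controls 1 and 3 it passed (adjusted p = 0.040, within a range of 0.040 to 0.285 over its alternatives). Col8a1 had 9.06, 9.17, 9.54, 9.28 and 9.41 in mutants and 9.73, 9.25, 9.50, 9.40 and 9.0 in controls (−0.08 ± 0.12).

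Multiplexins, here Col18a1, the source of endostatin, and Col15a1, lie next to basement membranes. Col18a1 had 6.22, 5.97, 6.10, 6.38 and 6.44 in E14.5 mutants and 6.19, 6.09, 6.08, 6.20 and 6.13 in controls (0.09 ± 0.09). Col15a1 had 2.09, 1.92, 2.08, 2.34 and 1.82 in mutants and 2.04, 2.04, 2.15, 2.05 and 2.34 in controls, all under the filter value. Col26a1, outside these classes, had 7.89, 7.80, 7.87, 8.0 and 7.74 in mutants and 7.87, 7.66, 7.78, 7.85 and 8.06 in controls. In each of the 3 the genotypes overlapped, and 0 passed.

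Among the other untested collagens, Col19a1 had 2.60, 1.96, 1.63, 1.74 and 1.58 in E14.5 mutants and 1.06, 1.69, 1.73, 1.6 and 1.80 in controls, and Col5a3 had 2.13, 1.85, 1.88, 2.43 and 2.20 in mutants and 1.67, 1.94, 1.77, 1.40 and 1.88 in controls. These are named after their values were seen, lie in the low range of the arrays and were given no test. The group means of Col4a3, Col4a4, Col4a6, Col6a4, Col6a5, Col10a1 and Col20a1 were at 1.93 or lower in E14.5 mutants and 1.89 or lower in controls.

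At E13.5, 0 of the 28 collagens differed between genotypes (limma), where 11 genes (0.099%) were called among all tested, and 1 of 28 had an unadjusted p under 0.05, against 9.54% of all genes. That gene was Col4a5, with 6.96, 7.28 and 6.88 in mutants, against 7.14, 7.25 and 7.41 in controls (−0.23 ± 0.10, adjusted p = 0.50). Col1a1 had the largest E13.5 difference of the 28, with 8.07, 8.47 and 7.63 in mutants, against 8.25, 8.32 and 8.67 in controls. Its difference of −0.36 ± 0.17 had an interval from −0.72 to 0.01, and its mutant arrays spread over more than the difference.

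Col6a3 had 8.85, 8.87 and 8.62 in E13.5 mutants and 8.83, 8.99 and 9.10 in controls (−0.20 ± 0.09). Col6a1 was at −0.22 ± 0.11, Col12a1 at −0.24 ± 0.13 and Col5a2 at −0.11 ± 0.07, all with adjusted p-values of 0.53 to 0.65. E13.5 mutants lay entirely below controls in 3 of 28 collagens (Col5a2, Col8a2 and Col23a1), where 13.5% of all genes did and 17.9% lay apart in either direction. Col5a2 had 10.44, 10.42 and 10.24 in mutants and 10.45, 10.47 and 10.51 in controls. Col8a2 averaged 8.68 in mutants and 8.72 in controls, and Col23a1 averaged 7.90 in mutants and 8.02 in controls.

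Most collagens were slightly below 0 at E13.5, 24 of 28 with a median of −0.11, on arrays where 68.5% of all genes were below 0 with a median of −0.04. After arrays were centred, 19 of 28 were below 0 with a median of −0.04. Without mutant replicate 3 the median was also −0.04. Palatal mesenchyme markers ran the same way, 8 of 9 below 0 with a median of −0.10 and mutant arrays entirely below control arrays, and their part in the collagen values was not tested. Mutant replicate 3 had the lowest value of the 6 E13.5 arrays in many collagens, and 6 examples follow. Col3a1 had 12.16, 12.23 and 12.04 in mutants and 12.17, 12.20 and 12.34 in controls, and Col1a2 had 12.01, 12.08 and 11.83 in mutants and 12.03, 12.03 and 12.17 in controls.

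Col4a1 had 9.44, 9.49 and 9.12 in mutants and 9.29, 9.47 and 9.79 in controls. Col6a2 had 9.24, 9.30 and 8.94 in mutants and 9.17, 9.22 and 9.42 in controls. In these 2 genes, as in Col3a1 and Col1a2, mutants 1 and 2 lay at or close to control values and mutant 3 lay lowest. Col12a1 had 8.08, 8.53 and 7.96 in mutants and 8.40, 8.33 and 8.56 in controls, and Col11a1 had 7.64, 8.14 and 7.55 in mutants and 7.70, 8.01 and 7.99 in controls. Here mutant replicate 2 reached control values and the other two mutants lay lower. The beta-actin probe sets, whose 5′ minus 3′ signal tracks RNA quality, gave −1.01 ± 0.05 in mutants and −1.19 ± 0.16 in controls at E13.5 (SD, n = 3 each). Its part in these values was tested only as a term in the fit, with which 21 of 28 collagens were below 0 and the median was −0.06.

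The other members described above by their E14.5 arrays overlapped at E13.5 except Col8a2 and Col23a1. Col14a1 had 7.10, 7.32 and 6.76 in E13.5 mutants and 6.99, 7.13 and 7.07 in controls. Col25a1 had 7.94, 8.15 and 7.77 in mutants and 8.02, 8.29 and 8.03 in controls. Col23a1 had 7.96, 7.96 and 7.80 in mutants and 7.98, 8.03 and 8.04 in controls, a small gap. Col4a2 had 7.74, 7.63 and 7.35 in mutants and 7.47, 7.76 and 7.96 in controls, and Col8a1 had 9.53, 9.63 and 9.47 in mutants and 9.57, 9.57 and 9.63 in controls. Col8a2 had 8.68, 8.68 and 8.69 in mutants and 8.78, 8.70 and 8.70 in controls, so its groups lay apart by almost nothing.

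Genes near the epithelium were also alike at E13.5. Col7a1 had 5.39, 5.46 and 5.26 in mutants and 5.32, 5.42 and 5.63 in controls. Col17a1 had 6.39, 6.53 and 6.18 in mutants and 6.36, 6.32 and 6.76 in controls. Epithelial markers, of which 7 of 10 were below 0 with a median of −0.05 and 0 called, had the same sign as both genes at that stage. Col18a1 had 7.33, 7.09 and 7.05 in mutants and 6.94, 7.24 and 7.32 in controls, Col15a1 had 4.99, 5.13 and 5.12 in mutants and 5.01, 4.90 and 5.02 in controls, and Col26a1 had 7.95, 7.82 and 7.91 in mutants and 7.79, 7.88 and 7.96 in controls. All overlapped.

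The genotype effect at E14.5 minus that at E13.5 passed for 0 of 28 collagens (limma; 13 genes, 0.117% of all), with 3 of 28 at an unadjusted p under 0.05, against 10.4% of all genes. Those 3 were Col13a1, Col22a1 and Col17a1. The calls at E14.5 are therefore not shown to be stronger than the effects at E13.5. For Col1a1 the effects were −0.34 at E14.5 and −0.36 at E13.5, a difference of 0.02 ± 0.22.

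Within E14.5 the 2 batches gave different pictures of the class. In batch 1, 26 of 28 collagens were below 0 with a median of −0.20, and in batch 2, 13 of 28 with a median of 0.01. Counted on differences rounded to 2 decimals, signs were below 0 in both batches for 11 collagens, above 0 in both for 1 and opposite for 15. Col4a2 stood at 0.00 in batch 2 after that rounding. A term for the effect in batch 2 minus that in batch 1 passed for 0 of 28 collagens and for 0 of all 11116 genes (limma), with 5 of 28 collagens at an unadjusted p under 0.05, against 11% of all genes. Both mutants of batch 1 were female and both controls male, so sex and genotype cannot be told apart within it.

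**Figure D4:**
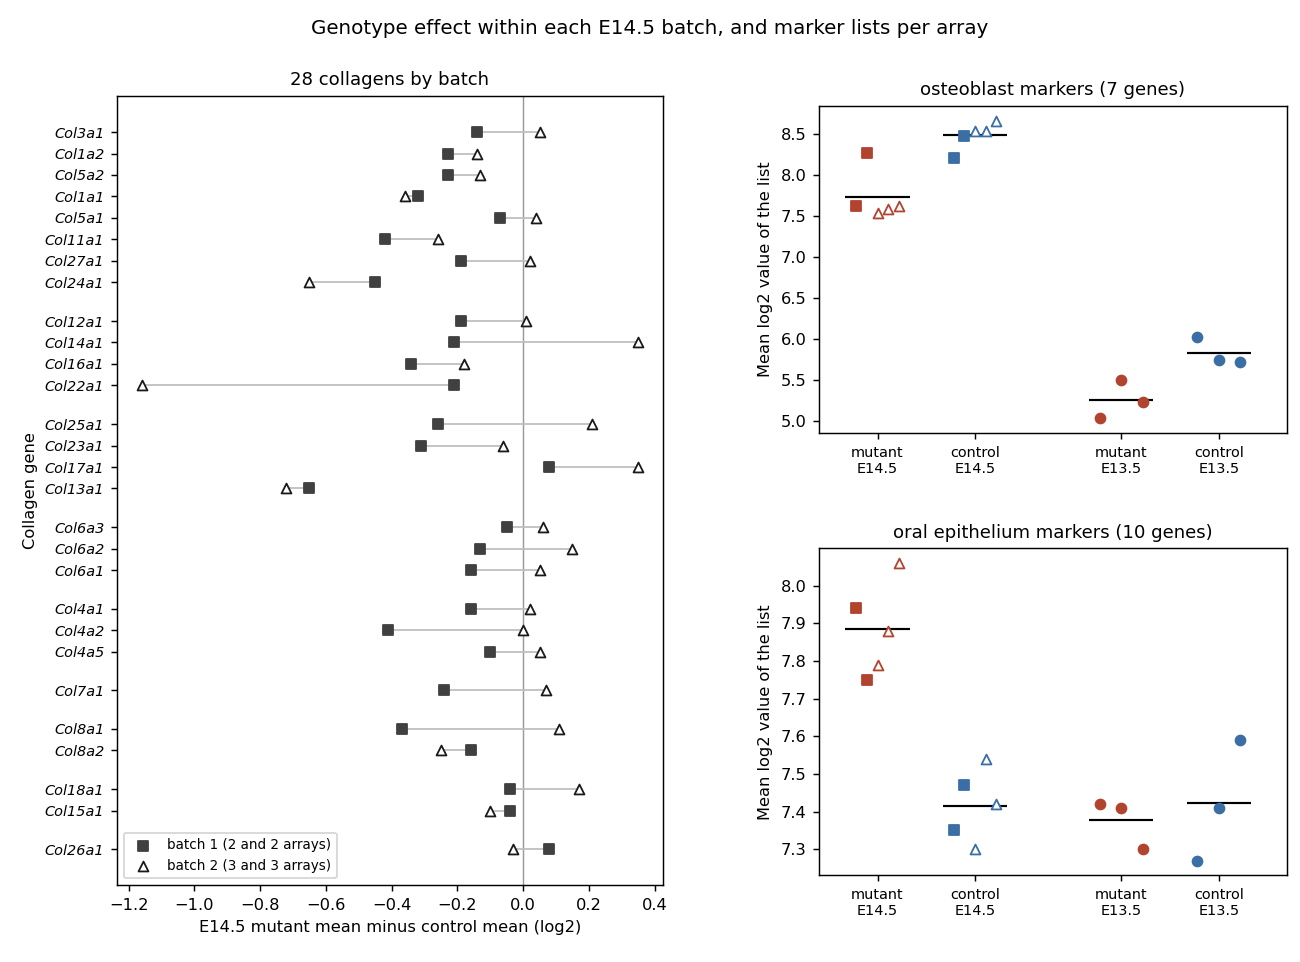
Left, E14.5 mutant mean minus control mean (log2, horizontal axis) of 28 collagens within batch 1 (squares) and batch 2 (triangles); Col13a1 is nearly equal in both and Col22a1 is far apart. Right, mean log2 value of 7 osteoblast and 10 oral epithelium markers on each array (circles E13.5, squares batch 1, open triangles batch 2, lines group means): E14.5 mutants lie lower than controls in the first except replicate 2, and higher in the second.

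Osteoblast markers were lower in mutants as well, on arrays where 1.15% of all genes were called lower at E14.5 and 44% were below 0. All 7 measured markers were below 0 in mutants at E14.5 and 5 of them fell: Dmp1, a gene of osteocytes (−1.36 ± 0.26), Phex (−1.22 ± 0.23), the transcription factor gene Sp7 (−0.70 ± 0.14), the alkaline phosphatase gene Alpl (−0.52 ± 0.13) and Mef2c (−0.35 ± 0.07). The list averaged 7.62, 8.27, 7.54, 7.58 and 7.62 on the 5 mutant arrays and 8.21, 8.47, 8.53, 8.53 and 8.66 on the 5 control arrays at E14.5. Mutant replicate 2, the one mutant within the control range, was also the highest mutant in Col13a1, Col22a1 and Col24a1. The other collagens lower at an unadjusted p under 0.05 (limma) were divided. As deposited, mutant replicate 2 was highest in Col1a1, Col1a2 and Col8a2, and mutant replicate 4 in Col11a1, Col5a2 and Col16a1. In Col16a1 mutant replicate 2 was the lowest mutant (6.50). At E13.5 the osteoblast list averaged 5.04, 5.50 and 5.23 in mutants and 6.03, 5.75 and 5.72 in controls, without overlap, with 0 of 7 called; of these genes Dmp1 was at 1.55 in both genotypes there. Runx2 was not analysed here, and the part of osteoblast content in the collagen values was not tested.

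Other cell types gave smaller shifts at E14.5. The 9 tested cartilage markers averaged 4.34 to 5.06 in mutants and 4.42 to 4.64 in controls at E14.5. Of these, 4 were below 0, and the median was 0.04. Hapln1 fell (−0.59 ± 0.14), and Epyc was at 0.74 ± 0.28 and did not pass. Matn1, Epyc, Col9a2 and the untested Acan averaged under the filter value in both genotypes. Of the 3 tendon markers Mkx fell (−0.30 ± 0.07), and Scx, a defining gene of tendon cells, was under the filter value at E14.5. None of 6 endothelial, 4 neuronal, 2 glial or 2 macrophage markers was called at E14.5. At E13.5 some lists stood further apart, with 0 called in any of them. Cartilage markers averaged 5.93 to 6.32 in mutants and 5.29 to 6.13 in controls there, 8 of 9 above 0 with a median of 0.60. Neuronal markers had a median of 0.51, with 4.31 to 5.98 in mutants and 4.34 to 4.77 in controls, and muscle markers one of 0.62, and did not overlap, with 7.45 to 7.71 in mutants against 6.80 to 7.06 in controls. The osteoblast median at E13.5 was −0.44.

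The genes that make and assemble collagen were read beside the collagens themselves. Over all genes tested, 1.15% were called lower at E14.5 and 44% were below 0, which is the background for each of these lists. The lists were not split by batch or fitted with a sex term. Of 17 tested genes for the modification and folding of the chains, 3 fell in E14.5 mutants and 16 were below 0. Their median was −0.16 against 0.01 over all genes. Those called were the prolyl hydroxylase subunits P4ha1 (−0.35 ± 0.07, adjusted p = 0.017) and P4ha2 (−0.36 ± 0.09, 0.045) and Creb3l1 (−0.63 ± 0.12, 0.014), a membrane-bound transcription factor that drives collagen secretion in osteoblasts. Serpinh1, the collagen chaperone HSP47, was at −0.17 ± 0.08 and did not pass.

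Propeptide processing and crosslinking had 7 tested genes, all below 0 at E14.5 with a median of −0.22, and 2 fell. Pcolce2, an enhancer of procollagen C-proteinase, averaged 5.77 in mutants and 6.68 in controls (−0.91 ± 0.17, adjusted p = 0.014), and Lox, the lysyl oxidase that crosslinks fibrils, averaged 9.88 in mutants and 10.05 in controls (−0.17 ± 0.04, 0.045). Fibril assembly had 7 tested genes, 6 below 0 with a median of −0.16, of which 2 fell: Sparc, a collagen-binding protein of bone (−0.22 ± 0.05), and the small proteoglycan gene Bgn (−0.19 ± 0.04). Dcn and Postn were at 0.01 and −0.03. Of 5 collagen receptor genes and 9 breakdown genes, 0 were called, with medians of −0.08 and −0.11. The smallest p among the breakdown genes was that of Mmp9 (−0.65 ± 0.18, adjusted p = 0.069). At E13.5, 0 genes of these 5 lists were called.

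Between stages the collagens went both ways. As deposited, 19 of 28 differed between E14.5 and E13.5 in mutants, 10 higher and 9 lower at E14.5, against 85.4% of all genes called (13.4% higher and 72% lower). In controls 18 of 28 differed, 9 higher and 9 lower, against 86.5% of all genes (11.6% higher and 74.9% lower). The median over all genes was −0.56 for mutants and −0.63 for controls, and whether the stages were normalized together is not stated. With arrays centred on their medians, 19 were higher and 4 lower in mutants (37.7% and 44.4% of all genes), and 22 were higher and 4 lower in controls (38.4% and 43.9%). After further quantile normalization of the same genes, 15 were higher and 5 lower in mutants (34.8% and 42.3% of all genes), and 15 were higher and 4 lower in controls (33.9% and 43.6%). For calls under all 3 scalings in both genotypes, the share of all genes was not counted, so the next counts have no background. Under all 3 scalings, 9 collagens rose and 3 fell in both genotypes. Col22a1 and Col15a1, among them, had passed the filter through one stage alone, so a difference between stages was bound to be found in them.

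The 9 that rose were Col1a1, Col5a2, Col11a1, Col24a1, Col12a1, Col22a1, Col17a1, Col4a5 and Col6a3. As deposited, Col1a1 rose by 1.71 ± 0.15 in mutants and by 1.69 ± 0.15 in controls, and both of its probe sets rose (1.30 and 1.71 in mutants, 1.27 and 1.69 in controls). Col22a1 was 2.49 ± 0.23 higher in mutants and 3.29 ± 0.23 higher in controls at E14.5 than at E13.5. Col24a1 was 1.77 ± 0.15 higher in mutants and 2.19 ± 0.15 higher in controls. Col13a1 was at −0.36 ± 0.15 in mutants and 0.24 ± 0.15 in controls as deposited, and after centring at 0.14 in mutants and 0.82 in controls.

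Probe sets of one gene disagreed more between stages than between genotypes. Of 17 collagens with at least 2 probe sets in use, 13 had the same sign of the genotype effect at E14.5, 14 at E13.5, but 8 had the same sign of the stage change in mutants and 12 in controls. The 2 sets of Col12a1 changed by −1.27 and 0.66 in mutants and by −1.13 and 0.49 in controls. Those of Col4a5 changed by −0.38 and 0.56 in mutants and by −0.60 and 0.34 in controls. Those of Col11a1 changed by −0.04 and 1.1 in mutants, but by 0.32 and 1.3 in controls. The rises of Col12a1 and Col4a5 in both genotypes, and that of Col11a1 in mutants, thus rest on 1 probe set. Those of Col24a1, Col17a1 and Col6a3 do too, as each of these genes had only 1. Col1a2 was at −0.40 in mutants and −0.33 in controls by its main set, and at 0.32 in mutants and 0.31 in controls by the other.

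The 3 that fell were Col27a1, Col15a1 and Col18a1. As deposited, Col27a1 was at −2.39 ± 0.06 for mutants and −2.30 ± 0.06 for controls. Col15a1 was at −3.03 ± 0.10 for mutants and −2.85 ± 0.10 for controls, and Col18a1 at −0.93 ± 0.11 for mutants and −1.03 ± 0.11 for controls. Both probe sets of Col27a1 and of Col18a1 fell in both genotypes. Col3a1 was at −0.18 ± 0.06 in mutants and −0.25 ± 0.06 in controls as deposited, but at 0.32 in mutants and 0.34 in controls after centring, so its direction between stages is not settled.

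**Figure D5:**
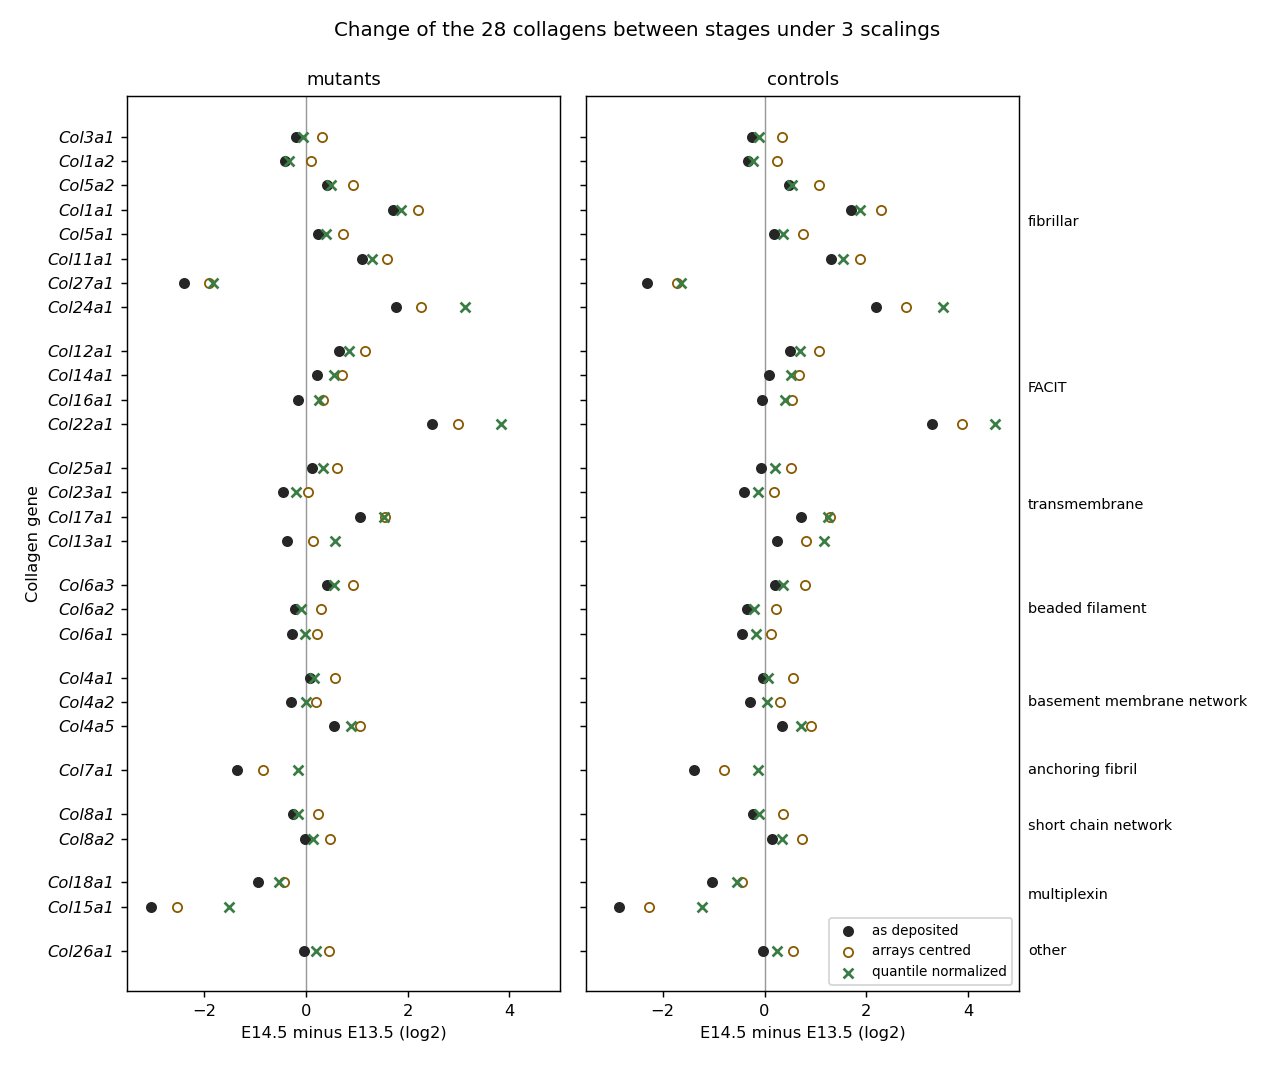
E14.5 minus E13.5 difference (log2, horizontal axis) of the 28 collagens tested in mutants (left) and controls (right), as deposited (filled), with arrays centred on their medians (open) and after further quantile normalization (crosses). Col1a1, Col11a1, Col22a1 and Col24a1 lie right of 0 and Col27a1, Col15a1 and Col18a1 left of 0 under all 3.

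Several collagen genes neighbour each other on the chromosome, and 6 such pairs occur among the 38. At E14.5 the mutant mean minus the control mean was −0.17 for Col5a2 and −0.02 for Col3a1, neighbours on chromosome 1. For Col4a1 and Col4a2 on chromosome 8, which share a promoter region, it was −0.05 and −0.16. For Col6a1 and Col6a2 on chromosome 10 it was −0.03 and 0.04. The remaining pairs include untested genes.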

How the data were processed

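Palate RNA was measured on 16 one-colour Affymetrix arrays. The authors deposited log2 signals of 45101 probe sets, made with GCRMA, per the submitters' processing notes, whose version and settings the sources used here do not give. Probe sets were named through the platform annotation, which gave 1 gene to 34958, several to 932 and none to 9211, with 64 controls. Each of 18194 genes was represented by its probe set of highest mean. Genes with a log2 value of 4 on at least 3 arrays (11116) went into a single linear model (limma 3.58.1, R 4.3.3; lmFit, eBayes) of the 16 arrays, with 4 groups and the labelled E14.5 batch, with Benjamini-Hochberg adjustment over the 11116 genes and a threshold of 0.05. Errors marked ± after a difference are moderated standard errors, and intervals are 95% intervals. Overlap between E14.5 groups was judged with the fitted batch effect removed, unless stated. The number of arrays limits the precision.

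Members and gene lists were chosen with earlier results of these data known. Values on every array are given for collagens called in a genotype contrast and the 2 of highest mean in each class, and means for those without overlap and the 6 of smallest p at each stage; among other lists, called genes and up to 3 of smallest p are named. Genes named outside this rule are marked, or shown for comparison with a partner chain. Alternatives changed the filter, the normalization, the choice of probe set, the batch term, the variance model, or took in a replicate block, RNA quality or sex, or left out an array; a fit without E14.5 controls 1 and 3 and a genotype by batch term were added after the data were seen. The fit was tested on simulated data. Figures were drawn with matplotlib 3.10.9 in Python 3.11.15.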

Additional observations from a re-analysis of the deposited data

Results flagged for a closer look

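In 3 of 56 groups of 5 arrays looked at (28 collagens in E14.5 mutants and in E14.5 controls), a single array lay far from the others, and chance flags about 1 in 20 groups. Col1a1 was 9.45 on mutant replicate 1, where the other mutants had 9.79 to 9.92. Col5a2 was 10.62 on that same mutant, where the others had 10.79 to 10.86. Col12a1 was 8.72 on control replicate 4, where the other controls had 8.94 to 9.03.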

How the results depend on the processing

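The count of collagens called was 0 at E13.5 and 0 for the difference of the genotype effects under all alternatives run. The E14.5 count of 3 was 0 in batch 1 alone and in E14.5 arrays alone, and 1 with array weights, with the replicate block and with a sex term; leaving out one array gave 1 to 3. Between stages the count was 19 in mutants, 30 with no filter on low values and 17 to 21 without one array, and 18 in controls, 17 to 20 without one array. No genotype effect changed sign past its threshold, but stage changes did. With calls on both sides, centring turned that of Col3a1 to 0.32 in mutants and 0.34 in controls, of Col6a1 to 0.23 in mutants, and of Col1a2 and Col6a2 to 0.25 and 0.23 in controls; quantile normalization turned that of Col13a1 to 0.58 in mutants, and the mean over probe sets that of Col12a1 to −0.47 in both genotypes. With a call on one side, centring gave 0.10 for Col1a2, 0.30 for Col6a2 and 0.14 for Col13a1 in mutants and 0.13 for Col6a1 in controls, and the mean over probe sets −0.13 for Col4a5 in controls; the cause was not tested. Equal replicate numbers do not show pairing, since same-numbered deviations correlated at −0.49 to 0.17, so the block is given here only, where it left the call of Col13a1. All genes called at E14.5 numbered 292, and 105 to 262 without one array; at E13.5, 11, and 6 to 35. Batch 1 holds 2 arrays per genotype, so the cause of its missing calls was not tested apart from its size. Array values close to the filter value of 4 limit what can be said of Col24a1 and Col22a1 at E13.5 and of Col7a1 at E14.5. As the stages stand on different scales, that value is not the same rank at both. Col7a1 at E14.5 lay at percentile 52.5 of all genes in mutants and 53 in controls. Col22a1 at E13.5 lay at percentile 35.2 in mutants and 35.6 in controls.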
